A study of Mus musculus with 16 samples.

Results

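The enzymes examined were 9 members of the heme pathway, Alas1, Alad, Uros, Urod, Cpox, Ppox, Fech, Hmox1 and Hmox2. The first 7 build heme and the last 2 break it down. The list names the genes and uses none of their levels, although it was chosen with earlier results of these data known. They are 9 of the 54193 genes with an annotated transcript. Transcript counts were summed for each gene in every library, and all 9 were among the 14838 genes that passed the filter on low counts and were tested.

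Heme is the iron-containing porphyrin that serves as prosthetic group in cytochromes, catalase and nitric oxide synthase. Its synthesis starts in mitochondria with 5-aminolevulinate synthase, the rate-limiting step, goes through cytosolic intermediates and ends in mitochondria, where ferrochelatase inserts iron. Heme oxygenases open the ring and release iron, carbon monoxide and biliverdin, and the inducible form, HMOX1, is a classic stress response enzyme. Brain endothelium is exposed to free heme after haemorrhage, which is the main clinical event of cerebral cavernous malformations.

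The cells were mouse brain microvascular endothelial cells (mBMEC), primary cells isolated from adult Cdh5(PAC)-CreERT2/Pdcd10 fl/fl mice aged 8 to 10 weeks. All 6 groups carried the floxed Pdcd10 (Ccm3) alleles and the tamoxifen-inducible Cre driven by the endothelial Cdh5 promoter, and Ccm3 was deleted in culture with 4-hydroxytamoxifen (4-OHT). Only KO cultures were given 4-OHT, so its own effect and that of losing Ccm3 cannot be told apart. Cells were left untreated or given 10 µM propranolol (P), a beta-adrenergic blocker, or 100 nM rapamycin (R), an inhibitor of the mTORC1 kinase complex, for 24 hours. Poly(A) RNA was sequenced from 3 libraries each of the KO, KO+P, KO+R and WT groups and from 2 each of WT+P and WT+R. Brains of several mice were pooled for each culture. The labels call the libraries biological replicates but do not say which came from the same culture, although libraries with the same replicate number deviated from their group means together, so a fit with the replicate number as a block is given wherever it changed a call of a member. P-values measure the spread between libraries, and the fit without the block treats all libraries as independent. If libraries with the same replicate number share a culture, the genotype difference averaged over drug conditions counts that culture repeatedly. The block takes out the replicate number, but not a deviation shared by libraries of the same number and genotype. P-values of the averaged genotype differences may then be too small in either fit. The averaged drug differences have a similar limit. A drug response shared by WT and KO libraries of the same number is counted in both genotypes, and the block does not take it out. Their p-values may then be too small as well.

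The libraries held 18.83 to 26.2 M counts. Levels are given as CPM, a gene's count relative to the size of its library, which was scaled between libraries with TMM factors. A gene was called changed at an adjusted p under 0.05 and a fold change over 1.5 in edgeR. Pdcd10 was lower in KO than in WT libraries for each treatment, but WT replicate 1, at 11.5 CPM, lay close to the untreated KO libraries (9.72 to 11.0 CPM) and far from WT replicates 2 and 3 (31.2 and 47.0 CPM), so values without it are also given where leaving it out changed a call of a member. WT+P and WT+R replicate 1 held 60.8 and 52.0 CPM of Pdcd10. Pairs that use WT replicate 1 may therefore not match in genotype or culture, which limits the pair folds and pair counts below. Summed endothelial markers ranged from 6202 to 13010 CPM, with all 8 markers detected in every library, and differed with the drugs. The sum was lower with propranolol in 5 of 5 pairs of the same genotype and replicate number, at 6202 and 9657 CPM in WT+P against 12018 and 10042 CPM in WT replicates 1 and 2, and at 6617, 8444 and 9906 CPM in KO+P against 10978, 10574 and 11499 CPM in KO. With rapamycin it was 8650 and 9510 CPM in WT+R, below each WT library, and 9726, 10791 and 10933 CPM in KO+R. The part of these shifts in the drug differences given here was not tested. The erythroid markers were at 0 in every library for 5 of the 6 genes listed and the sixth, Hba-a2, held 2 reads in all. Summed fibroblast markers differed with the replicate number. They ranged from 2.64 to 8.83 CPM in replicate 1, from 14.0 to 42.3 CPM in replicate 2 and from 67.0 to 186.2 CPM in replicate 3. The part of this in the differences between replicate numbers given here was not tested.

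Members differed widely in level and in how much they varied. On the TPM scale, which corrects for transcript length, the median library held 1066 TPM of Hmox1, 487.4 TPM of Alas1 and 102.6 TPM of Hmox2, the constitutive heme oxygenase. The intermediate enzymes followed at 55.5 TPM for Urod, 28.8 for Alad, 24.7 for Fech, 23.7 for Ppox, 12.9 for Cpox and 10.7 for Uros. Over the 16 libraries the highest CPM was 17.1 times the lowest for Alas1, 15.1 times for Hmox1 and 4.74 times for Cpox. For the other 6 members it was between 1.41 and 1.79 times. The first and the inducible last enzyme thus varied most, followed by Cpox. The place of Alas1 in the order of levels rests on 2 of its transcripts, one without a defined coding sequence and one of 460 bases, and without both its median was 63.8 TPM, below Hmox2.

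**Figure D1:**
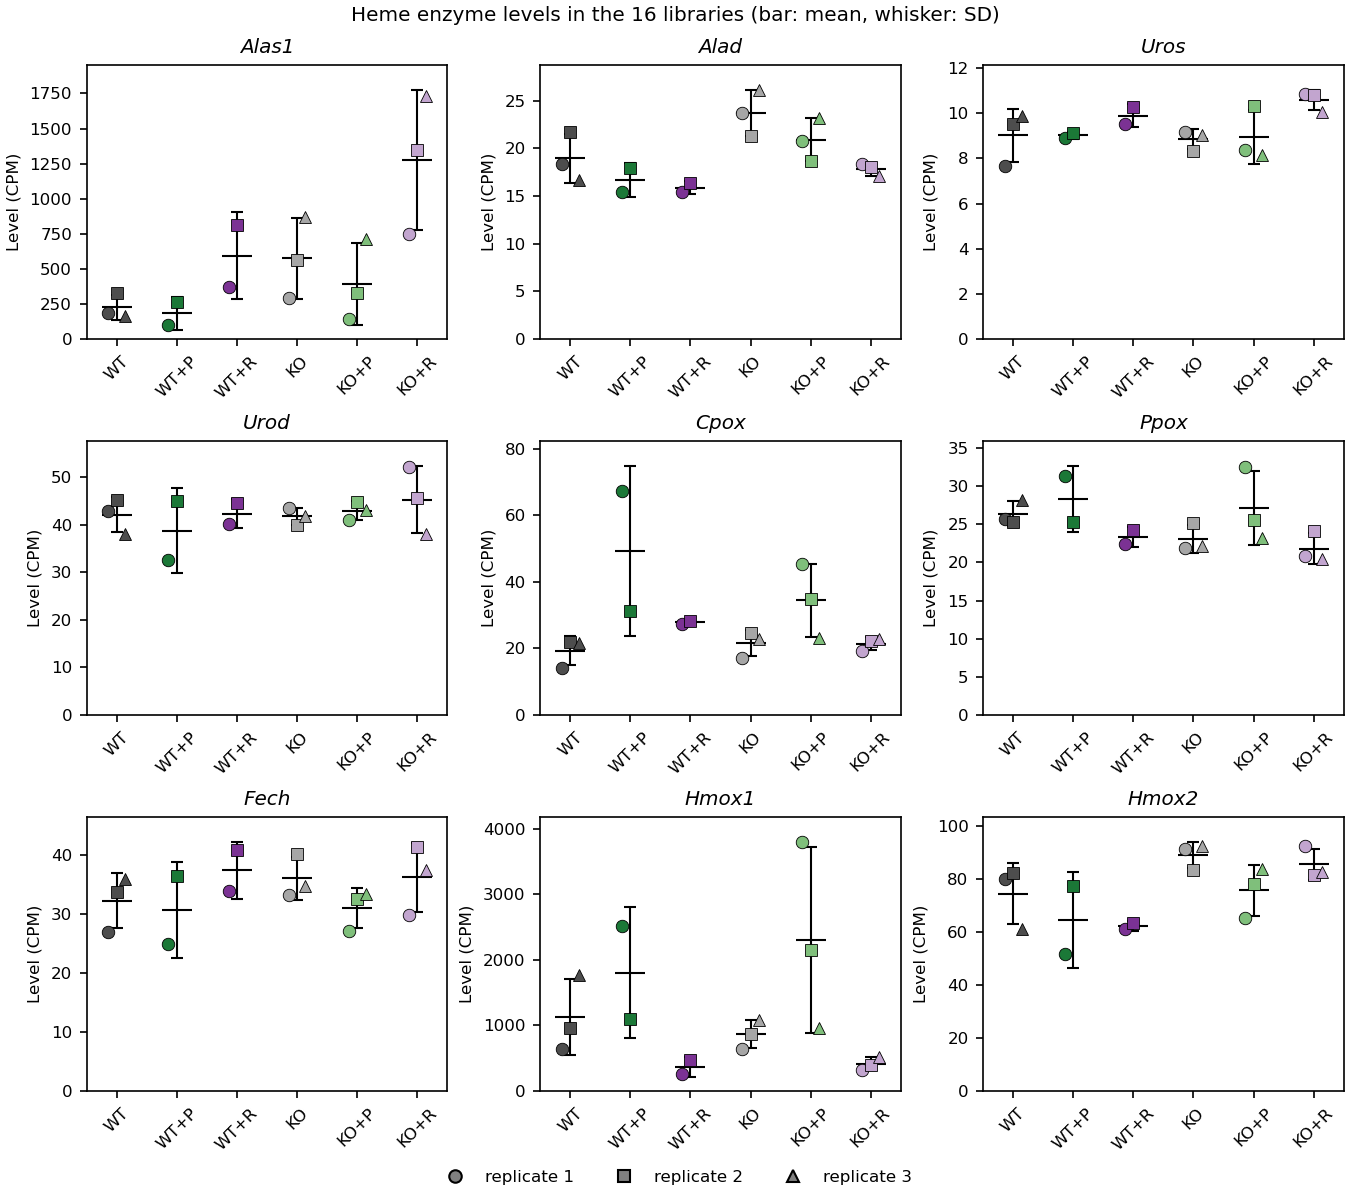
Level of each of the 9 heme enzymes in CPM (vertical axis, starting at 0) in the 6 groups (horizontal axis). Points are libraries, with the shape giving the replicate number, bars are group means and whiskers are SD, and the largest ranges are those of Alas1 (101.5 to 1734 CPM), Hmox1 (251.3 to 3804 CPM) and Cpox (14.2 to 67.4 CPM).

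Among the 9 members, 1, Hmox1, differed among the 6 groups in the test of all groups at once (edgeR quasi-likelihood F test, adjusted p = 0.0298), where 7.68% of all tested genes passed. With the replicate block Alas1 passed too (adjusted p = 0.0034, and 0.0733 without the block), and the share of all genes rose to 23.2%. For Cpox the adjusted p was 0.0645 and for Alad 0.102 without the block.

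In the 7 comparisons of single groups, edgeR called 0 of the 9 members without the block. At an unadjusted p under 0.05 there were 2 members for KO against WT (6.07% of all genes), 2 for KO+P against KO (12.6%), 1 for KO+R against KO (12.5%), 1 for WT+P against WT (9.87%), 1 for WT+R against WT (12.6%), 0 for KO+P against WT+P (6.19%) and 1 for KO+R against WT+R (5.72%). DESeq2 called 1 member for WT+P against WT, Cpox, where it called 0.835% of the genes it gave an adjusted p, and 1 for WT+R against WT, Hmox1, where it called 3.64%. In edgeR these comparisons called few genes of any kind, 0.00674% (1 gene) for KO against WT, for KO+P against KO and for WT+P against WT, 1.51% for KO+R against KO, 1.4% for WT+R against WT and 0% for KO+P against WT+P and KO+R against WT+R. With the block 1 member, Alas1, was called for WT+R against WT (4.56% of all genes) and 0 in the others, where 0.182% (KO against WT), 0.142% (KO+P against KO), 4.98% (KO+R against KO), 0.0809% (WT+P against WT), 0.0876% (KO+P against WT+P) and 0.0944% (KO+R against WT+R) of genes were called. The interactions of drug and genotype called 0 members and 0% of genes in either fit. Without the block, 0.721% of genes had an unadjusted p under 0.05 for the propranolol interaction and 0.762% for that of rapamycin. With so few genes at that level, the lack of calls does not show that the genotypes responded alike. The averaged comparisons carry most of what follows because they use more libraries.

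Alas1, which makes 5-aminolevulinate from glycine and succinyl-CoA, lies at chr9:106110642-106135734 on the minus strand of GRCm39. On average 70.6% of its counts were assigned to 1 transcript without a defined coding sequence, which begins inside the gene, and 19.3% to a full-length coding transcript. The first of these shares was between 68.7% and 73.4% in every group mean. An antisense transcript shares 8.2% of its exonic bases, and these libraries were not stranded. Its promoter is shown because both windows that RefSeq start sites give for the gene hold palindromes of the kind bound by NRF1, a regulator of nuclear genes for mitochondrial proteins. The window runs from 250 bases before to 50 bases after the start site, at chr9:106247681-106247980 of GRCm38.p6 on the minus strand, with each match to GCGC, 2 bases of any kind and GCGC again in capitals.

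Alas1: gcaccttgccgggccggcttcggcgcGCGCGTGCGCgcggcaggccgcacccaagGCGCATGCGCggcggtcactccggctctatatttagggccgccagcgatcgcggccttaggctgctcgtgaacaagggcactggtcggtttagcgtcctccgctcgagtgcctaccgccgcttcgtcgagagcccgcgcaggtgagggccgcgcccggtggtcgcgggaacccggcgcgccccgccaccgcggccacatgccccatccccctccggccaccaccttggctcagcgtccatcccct

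The matches begin at bases 27 and 56 of the window, and the same pair falls in the second Alas1 window. RefSeq gave 12 windows for 7 of the 9 members, all but Fech and Hmox1. The palindrome, which reads the same on both strands, was found in 3 of the 12, those of Alas1 and 1 of Uros, against 6.23% of the 32851 promoter windows of the mouse. The E-box CACGTG was found in 4 of the 12, for Alad, Uros and Urod, against 7.15%, and the antioxidant response element core TGACNNNGC, searched on both strands, in 0 of the 12, against 12.4% (4071 windows). Some windows of the same gene overlap. A match of letters is a description and was not tested as a binding site.

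Under rapamycin, Alas1 was higher in each pair of the same genotype and replicate number. In WT libraries Alas1 stood at 188.5, 325.7 and 163.7 CPM in replicates 1, 2 and 3, and in WT+R at 373.3 and 812.4 CPM in replicates 1 and 2. In KO it stood at 290.5, 560.7 and 870.5 CPM and in KO+R at 748.3, 1349 and 1734 CPM. Each WT+R library lay above each WT library, as for 14% of all genes, whereas the lowest KO+R library lay under the highest KO library. Within each replicate number the treated library was higher by 1.98 to 2.58-fold, in 5 of 5 pairs. Of all genes, 18.5% were higher in all 5 pairs.

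Averaged over the genotypes, the rapamycin difference in Alas1 was 1.27 on the log2 scale (SE 0.44), a 2.42-fold higher level, which did not pass the adjusted test (adjusted p = 0.105). With the replicate block it was 1.35 (SE 0.26, adjusted p = 0.0045) and passed. The blocked fit called 9.81% of all genes in this comparison and the fit without the block 5.29%. For WT+R against WT alone the difference was 1.39 (SE 0.66, adjusted p = 0.409) and 1.49 with the block (SE 0.38, adjusted p = 0.0442). For KO+R against KO it was 1.15 (SE 0.60, adjusted p = 0.467, and 0.0619 with the block), and the block without WT replicate 1 called it. The interaction of rapamycin with genotype was −0.24 (SE 0.89, adjusted p = 1.00), an error that leaves room for a difference larger than the rapamycin effect itself.

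Alas1 values were also higher in KO than in WT within each replicate number, but edgeR without the block did not call the difference. The untreated groups overlapped, with KO replicate 1 at 290.5 CPM below WT replicate 2 at 325.7 CPM. The KO level exceeded the WT level by 1.54-fold in replicate 1, 1.72-fold in replicate 2 and 5.32-fold in replicate 3. Averaged over the 3 drug conditions, the genotype difference was 1.18 on the log2 scale (SE 0.38, adjusted p = 0.125), where 1.76% of genes were called, and 0.90 with the block (SE 0.24, adjusted p = 0.0339), where 4.47% were called. Without WT replicate 1 the blocked difference was 1.01 (adjusted p = 0.0168). KO against WT without drugs gave 1.34 (SE 0.60, adjusted p = 0.802, and 0.182 with the block) and was not called in edgeR, while DESeq2 with the block called it (log2 1.13, adjusted p = 0.0264, with 2.67% of genes called).

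Propranolol went with lower Alas1 values. WT+P stood at 101.5 and 267.1 CPM and KO+P at 139.7, 325.5 and 713.6 CPM, each below the untreated library of its number, by 1.22 to 2.08-fold in 5 of 5 pairs (15.4% of all genes were lower in all 5). The averaged difference of −0.42 (SE 0.45, adjusted p = 0.626, and 0.266 with the block) was not called. The propranolol libraries of each genotype overlapped the untreated ones.

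**Figure D2:**
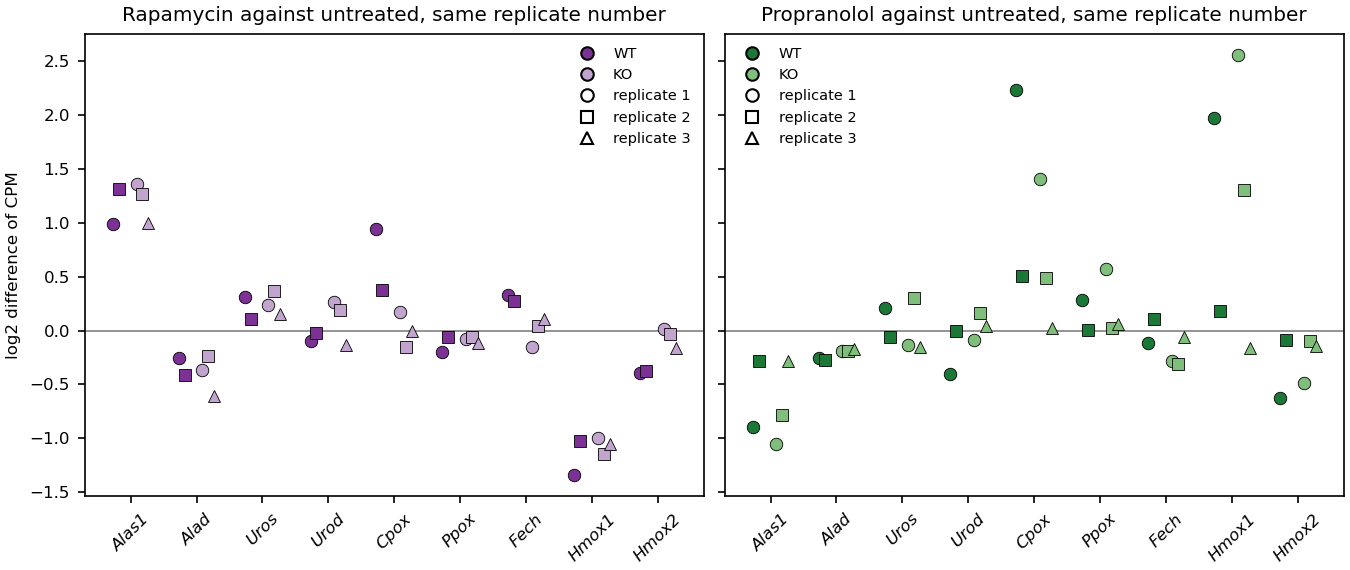
Difference between each drug-treated library and the untreated library of the same genotype and replicate number, as log2 of the CPM ratio (vertical axis), for the 9 members (horizontal axis), with rapamycin on the left and propranolol on the right. Colour gives the genotype and shape the replicate number, and the rapamycin points for Alas1 (1.98 to 2.58-fold higher) and Hmox1 (1.99 to 2.54-fold lower) form tight clusters, while the propranolol points for Cpox and Hmox1 spread out with replicate 1 at the top.

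The cytosolic steps were not called in edgeR. Alad (chr4:62423283-62438587, minus strand), which joins pairs of 5-aminolevulinate into porphobilinogen, held 18.4, 21.8 and 16.7 CPM in WT, 23.7, 21.3 and 26.1 CPM in KO, and 18.4, 18.0 and 17.1 CPM in KO+R. The difference between KO and WT was 0.32 (SE 0.13, adjusted p = 0.732). Each KO+R library lay below each KO library, a pattern seen for 13.2% of all genes, but the difference of −0.41 (SE 0.13, adjusted p = 0.180) did not pass. Averaged over genotypes the rapamycin difference in Alad was −0.33 (SE 0.10, adjusted p = 0.0599, and 0.0408 with the block), a 1.26-fold lower level, under the 1.5-fold limit in either fit. Alad lay lower with rapamycin in 5 of 5 pairs, as did 22.9% of all genes, opposite to Alas1, the enzyme just before it. Its genotype difference was 0.27 (SE 0.08, adjusted p = 0.106).

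Uros (chr7:133285987-133311801, minus strand), which closes the tetrapyrrole ring, stayed between 7.68 and 10.9 CPM in the 16 libraries. Urod (chr4:116844840-116851610, minus strand), which trims its side chains to coproporphyrinogen, stayed between 32.5 and 52.2 CPM. Of the exonic bases of Urod 57.3% are shared with Zswim5 on the opposite strand, so in these unstranded libraries part of its counts cannot be assigned to either gene. Neither gene was called in any comparison, with or without the block. Rapamycin libraries were higher than untreated ones for Uros in 5 of 5 pairs, by 1.08 to 1.29-fold (18.5% of all genes were higher in all 5).

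Cpox, the mitochondrial coproporphyrinogen oxidase, was the synthesis enzyme called higher with propranolol averaged over genotypes, in a call that depended on single libraries. It lies at chr16:58490414-58537999 on the plus strand, and its promoter window at chr16:58669958-58670257 of GRCm38.p6 is shown for comparison with that of Alas1. None of the 3 motifs was found in these letters, so it has no capitals.

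Cpox: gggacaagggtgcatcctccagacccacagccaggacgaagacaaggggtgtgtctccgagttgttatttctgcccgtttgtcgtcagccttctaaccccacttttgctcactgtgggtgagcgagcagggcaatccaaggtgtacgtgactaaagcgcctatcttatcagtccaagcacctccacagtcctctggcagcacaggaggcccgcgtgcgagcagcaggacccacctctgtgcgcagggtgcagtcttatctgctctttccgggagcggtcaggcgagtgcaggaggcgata

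Its levels were 14.2, 21.9 and 21.8 CPM in WT, 67.4 and 31.1 CPM in WT+P, 17.1, 24.7 and 22.9 CPM in KO, and 45.4, 34.8 and 23.3 CPM in KO+P. Both WT+P libraries were above the 3 WT libraries, as for 10.8% of all genes, while KO+P replicate 3 lay within the KO range. Averaged over genotypes Cpox rose 2.02-fold (log2 1.01, SE 0.22, adjusted p = 0.0403, and 0.0385 with the block), in a comparison where 1.58% of all genes were called and 1.45% were called higher (4.19% called with the block). It was the 1 member of 9 called there.

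The size of the Cpox difference varied with the replicate number. In replicate 1 propranolol went with 4.72-fold more Cpox in WT and 2.65-fold more in KO, in replicate 2 with 1.42 and 1.41-fold more, and in replicate 3, which exists for KO alone, with 1.02-fold more. The 4.72-fold value is set against WT replicate 1, the WT library with the least Cpox (14.2 CPM, against 21.9 and 21.8 CPM). Leaving out all replicate 1 libraries lowered the averaged log2 difference to 0.41 (adjusted p = 0.853). Leaving out 1 library at a time, the call was kept without WT+P replicate 2 or KO+P replicate 3 (adjusted p = 0.0039 and 0.0093) and lost without each of the other 14 (adjusted p 0.0566 to 0.330, with the largest without WT+P replicate 1, where the log2 difference was 0.68). Without WT replicate 1 it was 0.93 (adjusted p = 0.106), and 0.84 with the block (adjusted p = 0.118). WT+P alone against WT gave 1.35 (SE 0.32, adjusted p = 0.275) and KO+P against KO 0.68 (SE 0.29, adjusted p = 0.367). The interaction of −0.67 (SE 0.43) was not called. Under rapamycin Cpox stood at 27.4 and 28.4 CPM in WT+R and at 19.3, 22.1 and 22.9 CPM in KO+R, and the averaged difference was not called.

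Ppox (chr1:171100969-171109385, minus strand), the next mitochondrial oxidase, ranged from 20.4 to 32.5 CPM, with its highest values in KO+P replicate 1 (32.5 CPM) and WT+P replicate 1 (31.4 CPM). Fech (chr18:64585985-64623322, minus strand), the ferrochelatase that inserts iron, ranged from 25.0 to 41.3 CPM. Neither was called in any comparison, with or without the block. With propranolol Ppox was higher in 5 of 5 pairs, by 1.00 to 1.48-fold (14.6% of all genes were higher in all 5). Of the exonic bases of Ppox 17.8% are shared with B4galt3 on the opposite strand.

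Hmox1, the inducible heme oxygenase, fell with rapamycin in both genotypes. The gene lies at chr8:75820241-75827217 on the plus strand, shares no exonic base with another gene, and 1 transcript took 99.97% of its counts on average. Untreated WT libraries held 638.7, 964.3 and 1768 CPM and WT+R libraries 251.3 and 472.3 CPM. Untreated KO libraries held 644.9, 872.9 and 1081 CPM and KO+R libraries 323.8, 393.8 and 520.1 CPM. The rapamycin and untreated libraries did not overlap in either genotype. For single comparisons, 14.7% of all genes lay lower without overlap in WT+R and 13.2% in KO+R.

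Averaged over genotypes, Hmox1 fell by 1.35 on the log2 scale, a 2.55-fold lower level (SE 0.39, adjusted p = 0.0489, and 0.0466 with the block). Of all genes, 3.05% were called lower in this comparison. The drop within replicate numbers was 1.99 to 2.54-fold in 5 of 5 pairs, against 22.9% of all genes that were lower in all 5. WT+R against WT gave −1.64 (SE 0.59, adjusted p = 0.229) and KO+R against KO −1.07 (SE 0.50, adjusted p = 0.406), and the interaction was 0.56 (SE 0.75, adjusted p = 1.00).

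The adjusted p lay just under the threshold, and the call depended on single libraries. It was kept without WT replicate 1, WT+P replicate 1 or 2, or KO+P replicate 1 or 3 (adjusted p 0.0280 to 0.0422). It was lost without any of the other 11, namely WT replicates 2 and 3, both WT+R libraries, the 3 KO libraries, KO+P replicate 2 and the 3 KO+R libraries (adjusted p 0.0605 to 0.229), while the log2 difference stayed between −1.61 and −1.10 in all 16 cases. Summed microglia and macrophage markers were also lower with rapamycin, at 1.88 to 5.59 CPM in WT+R against 5.26 to 12.9 in WT and 3.44 to 8.47 in KO+R against 9.70 to 26.1 in KO. This sum was carried by Cd68 (1.16 to 25.6 CPM), P2ry12 was at 0 in every library, and the other 5 markers did not exceed 0.58 CPM. The part of this shift in the Hmox1 difference was not tested. In bulk RNA, fewer cells of a kind and less RNA per cell cannot be told apart.

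Propranolol went with higher Hmox1 in 4 of 5 pairs. WT+P libraries held 2512 and 1094 CPM in replicates 1 and 2, and KO+P libraries 3804, 2156 and 965.4 CPM in replicates 1, 2 and 3. In replicate 1 this was 3.93-fold more than untreated in WT and 5.90-fold more in KO, in replicate 2 it was 1.13 and 2.47-fold more, and in KO replicate 3 it was 1.12-fold less. The treated and untreated libraries overlapped in both genotypes. The averaged difference was 1.05 on the log2 scale (SE 0.37, adjusted p = 0.128, and 0.0908 with the block), and KO+P against KO gave 1.41 (SE 0.50, adjusted p = 0.328). Without the replicate 1 libraries the averaged difference was 0.19 (adjusted p = 0.929).

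WT+P replicate 1 and KO+P replicate 1 had the largest values of both Cpox and Hmox1 among the propranolol libraries of their genotype. These 2 libraries also had the lowest summed endothelial markers of the 16, and the part of that shift in the Cpox and Hmox1 values was not tested. Genotype left Hmox1 at an averaged difference of 0.06 (SE 0.31, adjusted p = 0.952).

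Hmox2 (chr16:4544216-4589816, plus strand), the constitutive heme oxygenase, held 80.1, 82.4 and 61.2 CPM in WT and 91.3, 83.6 and 92.6 CPM in KO. With rapamycin it held 61.0 and 63.5 CPM in WT+R and 92.3, 81.6 and 82.6 CPM in KO+R. The KO+R libraries lay above the WT+R libraries without overlap, as for 9.43% of all genes, with a difference of 0.46 (SE 0.18, adjusted p = 0.767). Averaged over drugs the genotype difference was 0.31 (SE 0.10, adjusted p = 0.108), a 1.24-fold higher level that did not pass. Since 74.1% of the exonic bases of Hmox2 are shared with Cdip1 on the opposite strand and the libraries were not stranded, part of these counts cannot be assigned to either gene.

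**Figure D3:**
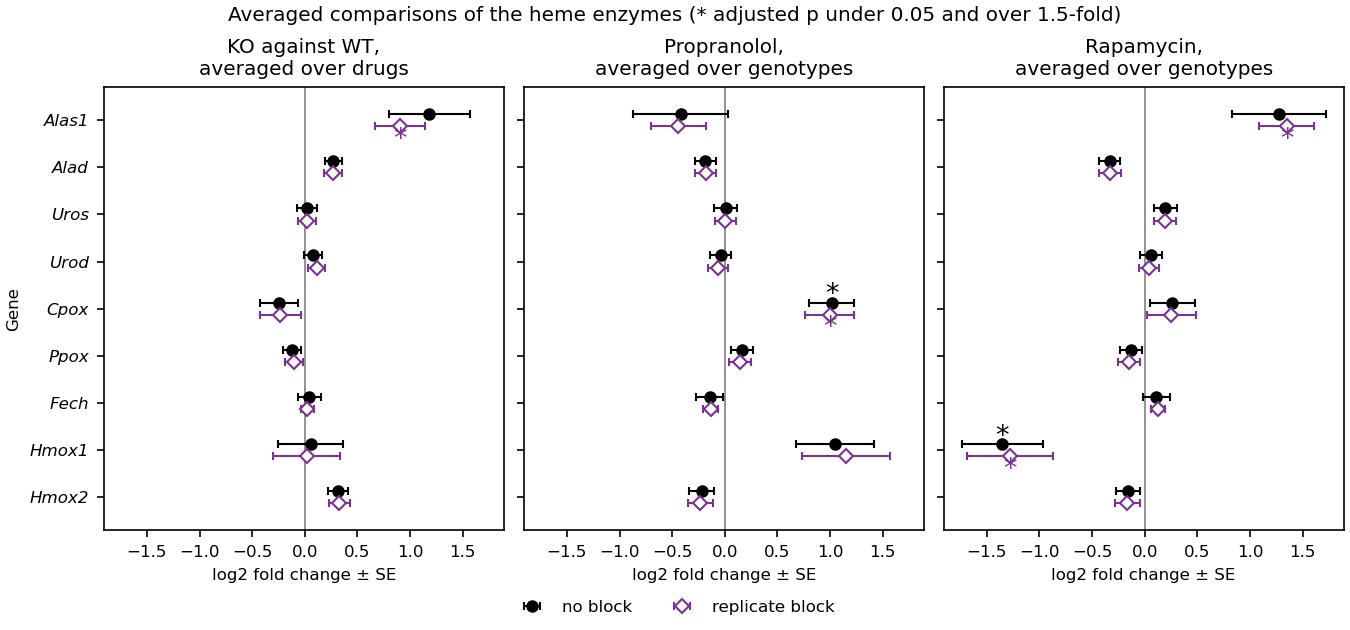
Averaged differences between KO and WT, propranolol and untreated, and rapamycin and untreated libraries (panels) for the 9 members (vertical axis), as log2 fold change with its SE (horizontal axis). Filled circles are the fit without and open diamonds the fit with the replicate block, asterisks mark an adjusted p under 0.05 with over 1.5-fold, and rapamycin shows Alas1 at 1.27 and Hmox1 at −1.35 on opposite sides of 0.

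The order of the first enzyme of synthesis and the inducible enzyme of breakdown differed with rapamycin when all transcripts were counted. In TPM, Alas1 was below Hmox1 in each of the 11 libraries without rapamycin and above it in each of the 5 with rapamycin. The ratio of Alas1 to Hmox1 was 0.11 to 0.41 in WT, 0.05 and 0.30 in WT+P, 0.50 to 0.99 in KO and 0.04 to 0.89 in KO+P. It was 1.82 and 2.16 in WT+R and 2.50 to 4.44 in KO+R. Leaving out a short Alas1 transcript of 460 bases, whose TPM is uncertain because of its length, gave ratios of 1.06 and 1.24 in WT+R and 1.73 to 2.46 in KO+R, and at most 0.58 in the other groups. Leaving out instead the transcript without a defined coding sequence gave 1.02 and 1.20 in WT+R, 1.11 to 2.62 in KO+R and at most 0.56 in the other groups. Without both transcripts Alas1 was below Hmox1 in all 16 libraries, at ratios of 0.26 and 0.27 in WT+R, 0.33 to 0.64 in KO+R, and at most 0.14 in the other groups. The order thus rests on how these transcripts are counted, while the ratio was higher with rapamycin than in every other library under each of the 4 counts. The ratio is a description that combines the 2 differences above, and it carries no test of its own.

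**Figure D4:**
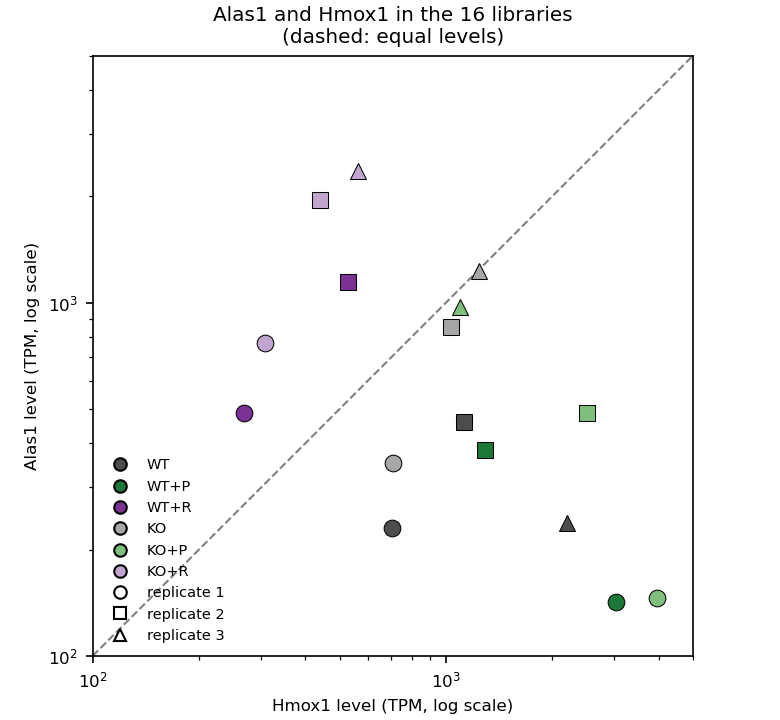
Alas1 level (vertical axis) against Hmox1 level (horizontal axis) in the 16 libraries, both in TPM over all transcripts and on log scales, with colour for the group, shape for the replicate number and a dashed line where both are equal. The 5 rapamycin libraries lie above the line, and the 11 others lie on its lower side, with KO replicate 3 closest to it at a ratio of 0.99.

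Other genes around heme were taken from 5 lists, with 48 of 49 genes tested. Alas2, the erythroid form of the first enzyme, was the 1 gene not tested, with 5 counts in all libraries together. Biliverdin reductase B (Blvrb), which acts after heme oxygenase, was higher in KO with the block (log2 0.66, adjusted p = 0.0470) and not without it (0.62, SE 0.25, adjusted p = 0.225). Biliverdin reductase A (Blvra) was not called.

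Of the 13 genes of mitochondrial transport and chaperones, 1 was called in the averaged comparisons, for genotype (1.76% of all genes). Abcb6, a porphyrin transporter, was 1.73-fold higher in KO cells (log2 0.79, SE 0.19, adjusted p = 0.0435). Its mean was 10.5 ± 2.3 CPM in WT and 16.7 ± 4.3 CPM in KO (SD, n = 3 each). The median of the list was 0.00 for genotype, 0.12 for propranolol and −0.09 for rapamycin, against −0.01, 0.00 and −0.02 over all genes.

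Of the 12 genes of heme and iron uptake, export and storage, 1 rose with rapamycin (5.29% of all genes called, 2.24% called higher). For genotype 1 was higher in KO (1.76% called, 0.883% called higher). Slc40a1, which encodes ferroportin, the iron exporter, was at 86.7, 71.9 and 188.3 CPM in WT, 203.9 and 158.3 CPM in WT+R, 69.2, 73.1 and 122.4 CPM in KO, and 188.8, 169.0 and 242.8 CPM in KO+R. It rose 1.89-fold (log2 0.91, SE 0.26, adjusted p = 0.0496, and 0.0023 with the block). Fth1, the ferritin heavy chain that stores iron, was 1.57-fold higher in KO (log2 0.65, SE 0.15, adjusted p = 0.0441), and with the block it fell under the 1.5-fold limit (log2 0.58, adjusted p = 0.0024). The median of the list was 0.13 for genotype, 0.22 for propranolol and 0.06 for rapamycin.

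Of the 11 heme sensors and regulators, 2 rose with rapamycin (5.29% of all genes called, 2.24% called higher) and 1 with propranolol (1.58% called, 1.45% called higher). Bach1, the heme-binding repressor of Hmox1 transcription, stood at 12.1, 9.94 and 14.2 CPM in WT, 28.6 and 15.9 CPM in WT+R, 11.7, 13.2 and 13.8 CPM in KO and 17.7, 18.2 and 19.4 CPM in KO+R, a 1.62-fold rise (log2 0.70, SE 0.17, adjusted p = 0.0233). Nr1d2, a heme-binding nuclear receptor of the circadian clock, rose as well (log2 0.59, SE 0.12, adjusted p = 0.0120). Mafg, a small MAF partner of both BACH1 and NRF2, rose 1.81-fold with propranolol (log2 0.85, SE 0.17, adjusted p = 0.0362). Lonp1, the mitochondrial protease that degrades ALAS1 protein, was 1.87-fold higher with propranolol (log2 0.90, SE 0.24, adjusted p = 0.0700) and passed with the block (adjusted p = 0.0463). It stood at 244.9 and 89.6 CPM in WT+P, against 97.5, 77.7 and 92.1 CPM in WT. In KO+P it stood at 225.7, 144.1 and 96.4 CPM, against 82.5, 83.0 and 86.0 CPM in KO. Its largest values were thus in replicate 1 too, and WT+P replicate 2 lay within the WT range. The median of this list was −0.07 for genotype, 0.08 for propranolol and 0.16 for rapamycin.

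The targets of NRF2, the transcription factor of the oxidative stress response that also drives Hmox1, were listed without Hmox1. Of 9, 1 was called with propranolol without the block (1.58% of all genes) and 3 with it (4.19%), all higher, and the median of the 9 log2 differences was 0.59 against 0.00 over all genes. Slc7a11, the cystine transporter, rose 5.69-fold (log2 2.51, SE 0.52, adjusted p = 0.0370), from 6.53, 5.90 and 24.1 CPM in WT to 91.9 and 21.0 CPM in WT+P, and from 10.1, 12.2 and 28.9 CPM in KO to 189.5, 122.5 and 45.02 CPM in KO+P. Srxn1, sulfiredoxin, was 2.88-fold higher (adjusted p = 0.0536, and 0.0439 with the block), and Gclc, of glutathione synthesis, 1.51-fold (adjusted p = 0.0911, and 0.0395 with the block). As for Cpox and Hmox1, the largest Slc7a11, Srxn1 and Gclc levels with propranolol in each genotype were in replicate 1. Srxn1 stood at 546.3 and 138.9 CPM in WT+P and at 877.3, 410.1 and 248.3 CPM in KO+P.

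With rapamycin 0 of the 9 NRF2 targets were called in edgeR, without the block (5.29% of all genes) or with it (9.81%). At an unadjusted p under 0.05 there was 1 without the block (22% of all genes). Their median difference was −0.29 against −0.02 over all genes. Nqo1, a quinone reductase, was the 1 target called between genotypes, 3.82-fold higher in KO (log2 1.93, SE 0.34, adjusted p = 0.0123). Its levels were 27.98, 33.2 and 32.4 CPM in WT and 72.5, 61.9 and 205.3 CPM in KO, without overlap, as for 6.69% of all genes. The genotype comparison called 1.76% of all genes.

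Across the 16 libraries, the 5 genes with levels most like those of Hmox1 were Psmd5, Fosl1, Sec11c, Psat1 and Faap24, with Pearson r from 0.959 to 0.937 on log2 CPM over the 12410 genes that averaged 1 CPM or more. Those most like Alas1 were Plcd3, Rai14, Smpdl3a, Epas1 and Tnfaip2, with r from 0.945 to 0.932. Among the members themselves Hmox1 went most closely with Ppox (r = 0.80), and Alas1 went opposite to Ppox (r = −0.79) and Hmox1 (r = −0.64). These correlations describe libraries that share treatments and replicate numbers.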

How the data were processed

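Poly(A) RNA of mBMEC was sequenced in 16 unstranded libraries. The authors deposited, for each library, an estimated count and a TPM value per transcript with its effective length, in Salmon format. Per the labels Salmon 1.5.2, Trim Galore 0.6.7 and GRCm39 were used, while the methods describe STAR and HTSeq, and the transcript index is not given in the sources used here. Of 140789 transcripts, 139544 matched GENCODE vM39, and the rest held 0.39 to 0.57% of counts. Counts were summed per gene, rounded and fitted in edgeR 4.0.16 (R 4.3.3; filterByExpr, TMM factors 0.934 to 1.041, quasi-likelihood) with 6 groups and 10 residual degrees of freedom. Adjusted p-values are Benjamini-Hochberg over 14838 genes. Averaged comparisons weight each genotype or drug condition equally.

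Libraries with the same replicate number deviated together (r from 0.19 to 0.62 in compared groups with 3 pairs), so the number was used as a block in a second fit. This pairing was read from the values, not from the labels. The scripts were tested on simulated data. DESeq2 1.42.0, scaling, filter, length, fold and left-out libraries were tried as alternatives. All 9 members are named, with full statistics where an unadjusted p was under 0.05 or the blocked fit called them. The members and the other gene lists were chosen with earlier results of these data known. Promoter sequences are from RefSeq (GRCm38.p6). Gene positions are on GRCm39. 1 listed gene is not reported here.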

Additional observations from a re-analysis of the deposited data

How the results depend on the processing

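No direction of the 17 fold differences recomputed reversed in 524 alternative fits. The 17 were picked from these data for a low unadjusted p or a blocked call, which makes a reversal unlikely from the start. Of these fits, 468 left the call as it was, mostly by keeping a difference uncalled, 35 ended it and 21 created it. Only Cpox with propranolol averaged and Hmox1 with rapamycin averaged were called to begin with, so all 35 lost calls are theirs. For Cpox 5 of 15 other settings and 14 of 16 left-out libraries ended the call. For Hmox1 these were 5 of 15 and 11 of 16. The counts of members called were less stable. Without alternatives they were 1 of 9 among the 6 groups, 1 for propranolol averaged, 1 for rapamycin averaged and 0 elsewhere. DESeq2 called 4 among the groups (19.5% of all genes), 1 each for WT+P against WT (0.835%), WT+R against WT (3.64%) and genotype averaged (3.75%), and 2 each for propranolol (6.26%) and rapamycin averaged (7.01%). DESeq2 with the replicate block called 4 among the groups (36.1%), 1 each for KO against WT (2.67%), KO+R against KO (7.92%), WT+P against WT (0.737%), WT+R against WT (6.66%) and genotype averaged (6.11%), and 2 each for propranolol (9.66%) and rapamycin averaged (10.4%). The replicate block in edgeR called 2 among the groups, 1 each for WT+R against WT and genotype averaged, and 2 for rapamycin averaged. It changed no other call of a member. The block without WT replicate 1 called 2 among the groups (18.9%), 1 each, Alas1, for KO+R against KO (4.77%), WT+R against WT (2.73%) and genotype averaged (4.94%), 0 for propranolol averaged (0.351%) and 2 for rapamycin averaged (8.31%). Without a filter on low counts 3 were called among the groups (5.12%). With only the groups of the contrast 0 were called for propranolol averaged (0.219%) and 2 for rapamycin averaged (6.24%). A length offset or protein-coding transcripts alone gave 0 for rapamycin averaged (adjusted p of Hmox1 0.0548 and 0.0510), and a test against 1.5-fold gave 0 for both drugs averaged. Leaving out the replicate 1 or the replicate 3 libraries, chosen after seeing the data, gave 0 among the groups and for both drugs averaged. Leaving out 1 library at a time gave 0 to 3 among the groups, 0 to 2 for propranolol averaged, 0 to 1 for rapamycin averaged, 0 to 1 for WT+P against WT and 0 for the other comparisons. The cause of these changes was not tested.

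Replicates varied by 32.3% (edgeR's coefficient of biological variation; 19% in the blocked fit). The drug groups of WT held 2 libraries each. Genotype cannot be told apart from 4-OHT, and opposite-strand overlap limits Hmox2 and Urod.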
